A study of Homo sapiens with 12 samples.

Results

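The mitotic genes described here are 52 genes that act between the entry of a cell into mitosis and its division, and all 52 were measured in PANC-1, a human cell line that grew out of a ductal adenocarcinoma of the pancreas. They were found by their symbols among the 34487 features of 1-colour (Cy3) mRNA microarrays, of which 14675 features could be named and covered 13422 genes. They had 60 features in all, as 6 genes had more than 1, and a gene with several was read from the feature that was brightest on average over the 12 arrays. The groups were PANC-1 cells co-cultured with tumour-associated macrophages (TAMs) under hypoxia (HPM), PANC-1 cells alone under hypoxia (HPC), PANC-1 cells co-cultured with TAMs under normoxia (NPM) and PANC-1 cells alone under normoxia (NPC), with 3 arrays in each. Co-culture took 4 days in a transwell, in which a porous membrane keeps the 2 cell types apart. The TAMs were macrophages derived from THP-1, a human monocytic leukaemia line, and polarized with IL-4 and IL-13, so that no primary macrophages were involved. The oxygen level under hypoxia and the time for which the cells alone were grown are not given in the sources used here. Each group was described as triplicate independent experiments, and p values measure the spread between these arrays.

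Progression through G2 and mitosis needs a wave of transcription that peaks shortly before division. The complex of B-MYB, FOXM1 and MuvB acts on these promoters when cells cycle, and the related DREAM complex represses them when cells leave the cycle. Both bind through the cell cycle genes homology region (CHR), a short element near the start site, and NF-Y, a general activator, binds nearby CCAAT boxes. The products then act in order: cyclin B with CDK1 starts mitosis, Aurora and Polo kinases build the spindle, the checkpoint holds anaphase until kinetochores are attached, the anaphase-promoting complex destroys cyclin B and securin, and kinesins and the cytokinesis proteins separate the daughter cells. The mRNA of such genes is a common measure of how many cells of a culture are dividing, although it is not a count of mitoses.

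Promoter windows of RefSeq (build GRCh38.p14), from 250 bases before to 50 after the annotated start site, were at hand for 43 of the 52 genes. AURKA, FOXM1, PBK, BUB3, TTK, BIRC5, UBE2C, TPX2 and RACGAP1 had none in the table. Of genes with several start sites, 7 of the 43, the first listed window was used, and the same was done for all 27305 genes of the table. A CHR, searched as TTTGAA or TTTAAA on both strands, was found in 35 of 43 windows (81.4%), against 24.3% of the windows of all genes. A CCAAT box, searched as CCAAT on both strands, was found in 33 windows (76.7%), against 35.7% of all, and 20 windows (46.5%) held at least 2 such boxes, against 11.3%. Both elements were present in 28 windows (65.1%), against 9.49% of all. A TATA box, searched as TATAAA, was present in 3 windows (6.98%), against 12% of all, and an E2F site, searched on both strands as TTCCCGC, then also as TTGGCGC, then also as TTCGCGC and finally as TTGCCGC, in 14 (32.6%), against 13.1%. The shares of all genes include genes that code for no protein. Over the 15842 protein-coding genes of the table they were 19.5% for a CHR, 36.4% for a CCAAT box and 7.95% for both. For at least 2 CCAAT boxes, a TATA box and an E2F site they were 12.5%, 9.63% and 17.1%. These are matches of letters and not shown sites of binding, and a CHR or CCAAT match may overlap another.

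The 120 bases before the start site are printed for genes whose co-culture difference is described below, with CHR and CCAAT matches of either strand in capitals. The first 9 genes are those with a window among the 10 that passed the test in HPM vs HPC. In CCNB1, CCNB2, PLK1, PTTG1 and MKI67 a CHR began 29 or 30 bases before the start site.
CCNB1 (chr5:69167030-69167149, plus strand): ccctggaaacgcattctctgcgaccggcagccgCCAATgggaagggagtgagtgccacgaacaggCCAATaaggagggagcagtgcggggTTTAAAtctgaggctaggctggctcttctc
CCNB2 (chr15:59105026-59105145, plus strand): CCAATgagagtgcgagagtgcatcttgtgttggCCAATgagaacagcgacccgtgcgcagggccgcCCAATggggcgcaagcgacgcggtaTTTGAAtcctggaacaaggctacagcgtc
PLK1 (chr16:23678769-23678888, plus strand): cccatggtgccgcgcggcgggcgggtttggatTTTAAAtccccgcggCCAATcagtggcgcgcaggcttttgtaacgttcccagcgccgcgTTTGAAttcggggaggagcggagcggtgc
PTTG1 (chr5:160421735-160421854, plus strand): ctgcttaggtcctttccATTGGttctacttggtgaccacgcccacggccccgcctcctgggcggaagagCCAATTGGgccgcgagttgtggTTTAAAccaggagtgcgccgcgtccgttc
CDC20 (chr1:43358861-43358980, plus strand): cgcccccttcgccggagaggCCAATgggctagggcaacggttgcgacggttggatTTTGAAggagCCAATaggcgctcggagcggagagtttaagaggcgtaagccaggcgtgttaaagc
KIF20A (chr5:138178992-138179111, plus strand): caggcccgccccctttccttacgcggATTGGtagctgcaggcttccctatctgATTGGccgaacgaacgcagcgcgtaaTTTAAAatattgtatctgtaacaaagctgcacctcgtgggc
ASPM (chr1:197146670-197146789, minus strand): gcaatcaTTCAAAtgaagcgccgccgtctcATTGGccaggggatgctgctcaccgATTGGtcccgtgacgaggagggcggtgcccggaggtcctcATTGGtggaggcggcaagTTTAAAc
MKI67 (chr10:128126424-128126543, minus strand): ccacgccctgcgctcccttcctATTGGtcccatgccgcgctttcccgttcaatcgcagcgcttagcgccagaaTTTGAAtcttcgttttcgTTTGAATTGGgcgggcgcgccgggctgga
CENPE (chr4:103198344-103198463, minus strand): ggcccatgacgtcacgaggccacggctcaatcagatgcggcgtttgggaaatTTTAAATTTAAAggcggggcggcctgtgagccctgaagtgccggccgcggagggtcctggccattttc
CENPE held 2 adjoining copies of TTTAAA in this stretch and no CCAAT box in its window. The next genes are shown for contrast. CDK1 and AURKB were higher in HPM than in NPM, and BUB1 lacked a TTTGAA or TTTAAA match in its window.
CDK1 (chr10:60778211-60778330, plus strand): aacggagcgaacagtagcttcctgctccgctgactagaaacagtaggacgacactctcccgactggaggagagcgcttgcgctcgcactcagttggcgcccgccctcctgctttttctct
AURKB (chr17:8210226-8210345, minus strand): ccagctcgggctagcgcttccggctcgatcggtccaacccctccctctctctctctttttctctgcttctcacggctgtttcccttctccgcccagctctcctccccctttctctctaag
BUB1 (chr2:110678064-110678183, minus strand): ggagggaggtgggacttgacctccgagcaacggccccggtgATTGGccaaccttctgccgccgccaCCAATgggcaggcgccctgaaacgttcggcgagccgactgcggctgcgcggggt
In CDK1 both CHR matches and the CCAAT match lay further upstream, and AURKB held no CHR match and a single CCAAT match 153 bases upstream. The genes with no TTTGAA or TTTAAA match in the window used were AURKB, BUB1, CCNA2, CDC25B, CDC25C, KIF22, MELK and NEK2. Other forms of the CHR were not searched.

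**Figure D1:**
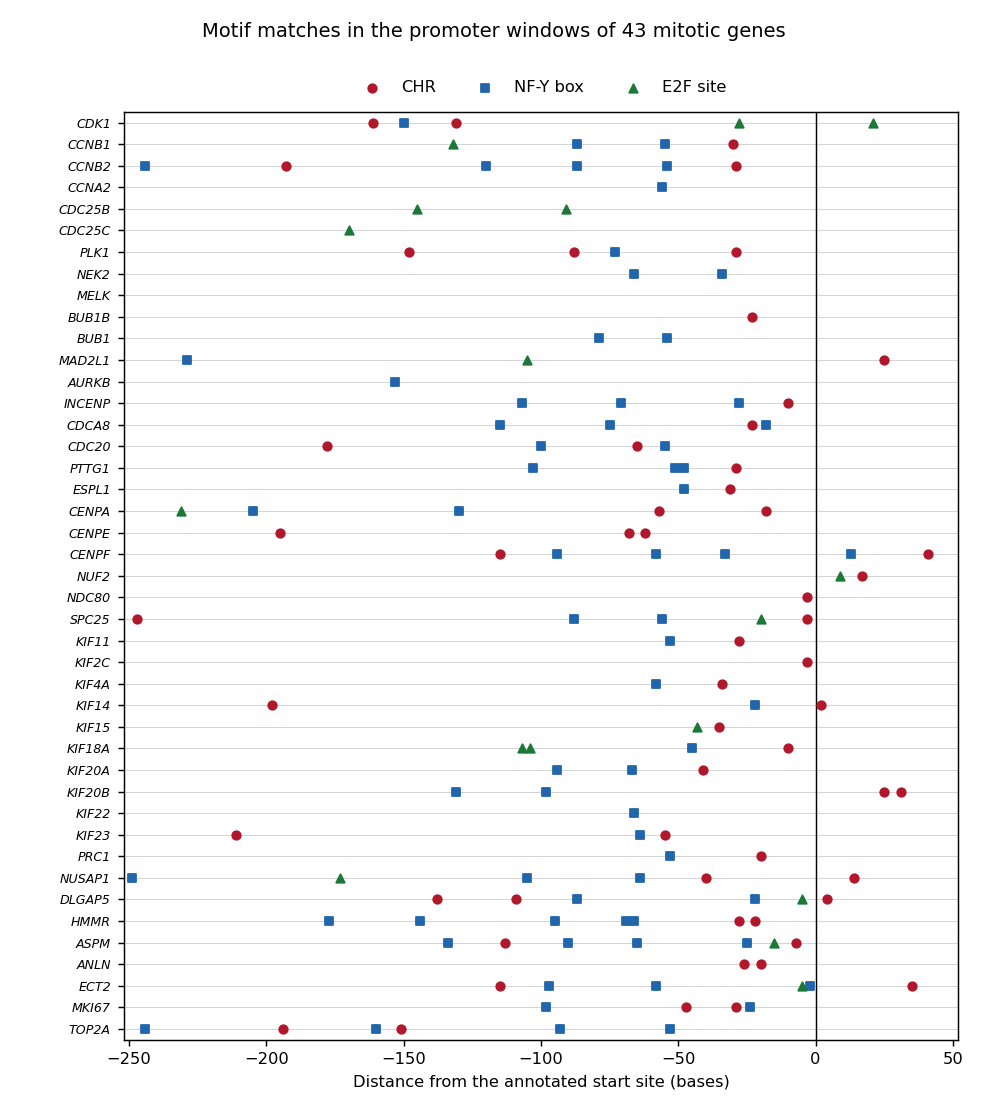
Positions of motif matches in the promoter windows of 43 mitotic genes, with the distance in bases from the annotated start site (black line) on the horizontal axis and a gene in each row. Circles mark CHR matches, squares CCAAT (NF-Y) boxes and triangles E2F sites, and 23 of the genes have a CHR that begins within 50 bases before the start site.

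The samples were checked on genes outside the set. Array medians over all features lay between 9.17 and 9.29 on the log2 scale. All 9 measured genes of a hypoxia check list passed at an adjusted p under 0.05 as higher in HPM than in NPM (median 1.63 on the log2 scale), and all 9 had an unadjusted p under 0.05 as higher in HPC than in NPC (median 1.56), of which 1 passed after adjustment. Of 6 epithelial markers, the keratins KRT8 and KRT18 lay between percentiles 96.9 and 99.5 of each array, KRT7 at 91.3 to 96.5 and KRT19 at 75.3 to 86.8, whereas the adhesion molecules EPCAM (10.0 to 41.4) and CDH1 (14.04 to 49.97) were dim. Of these 6, 5 had lower means in HPM than in HPC (median -0.37, 2 of them at an unadjusted p under 0.05), as did all 6 in NPM compared with NPC (median -0.35, 0 at that p), and the part of this shift in the differences below was not tested. Of 20 macrophage markers 13 were measured. Their summed intensity on the linear scale was 6604 to 7051 in HPM, 4642 to 4858 in HPC, 5750 to 6176 in NPM and 5265 to 5700 in NPC. The lysosomal protein CD68, at percentiles 82.9 to 91.2, averaged 12.37 in HPM, 11.57 in HPC, 12.16 in NPM and 11.85 in NPC (log2 intensity), and without it the sum of the other 12 was 1350 to 1688 in HPM, 1439 to 1904 in HPC, 1364 to 1655 in NPM and 1647 to 1886 in NPC. CD14, AIF1, LYZ, C1QA and C1QB stayed at or below percentile 41.0. The sum over all 13 was thus higher in co-culture through CD68, while 9 of the 13 had lower means in HPM than in HPC (median -0.25, 0 lower and 1 higher at an unadjusted p under 0.05) and 7 had lower means in NPM than in NPC (median -0.19, 4 lower and 1 higher). The part of macrophage RNA in the differences below was not tested.

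The mitotic genes were lower in co-cultured PANC-1 cells than in PANC-1 cells alone at either oxygen level. The mean log2 intensity over the 52 genes was 10.53 ± 0.07 in HPM and 11.38 ± 0.08 in HPC, and it was 10.59 ± 0.09 in NPM and 11.37 ± 0.13 in NPC (SD, n = 3 arrays each). All 52 genes had a negative difference in both comparisons. The median difference was -0.79 in HPM vs HPC, a level 1.73 times lower, with a range of -1.83 to -0.17, and -0.79 in NPM vs NPC, with a range of -1.57 to -0.19. Over all features the medians were -0.02 and -0.01. In such a bulk measurement a smaller share of dividing cells and less of these mRNAs per cell cannot be told apart.

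For 30 of the 52 genes, all 6 arrays of co-cultured cells lay below all 6 arrays of cells alone, against 2.11% of all features. In HPM vs HPC the groups did not overlap for 46 genes, against 16.4% of all features lower without overlap, and in NPM vs NPC for 45 genes, against 12.6%. The HPM and HPC arrays overlapped for AURKB, INCENP, BUB3, UBE2C, CDC25B and TTK, and the NPM and NPC arrays for KIF11, MELK, PLK1, INCENP, FOXM1, CDC25B and MKI67. INCENP, a scaffold of the chromosomal passenger complex, was dim on all arrays, at percentiles 1.24 to 17.7, whereas CDC25B, a phosphatase that activates CDK1, lay at percentiles 96.8 to 98.5 and differed by -0.17 and -0.19.

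**Figure D2:**
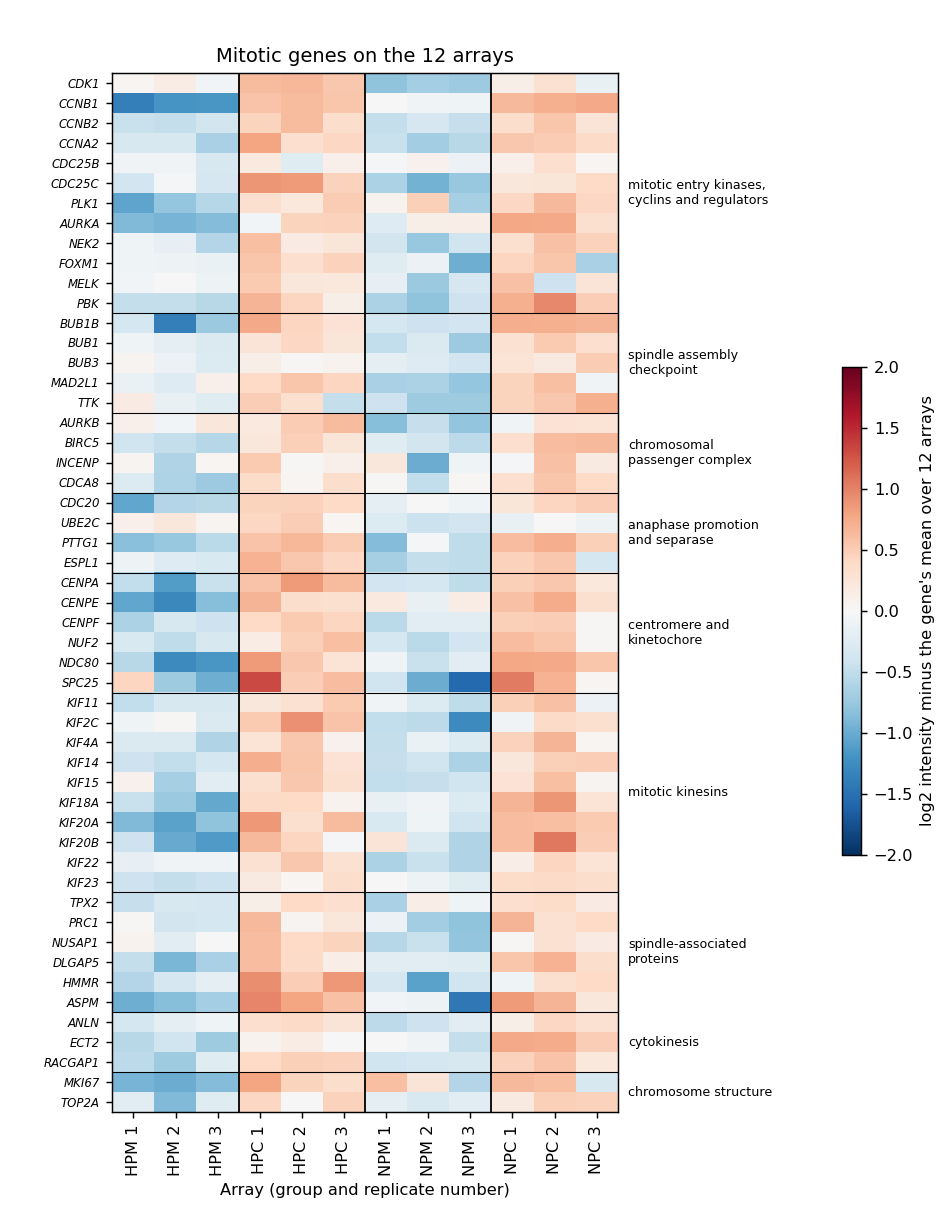
Log2 intensity of the 52 mitotic genes (rows, by role) on the 12 arrays (columns), each minus the gene's mean over the 12 arrays, with red above and blue below that mean. The HPM and NPM columns are mostly blue and the HPC and NPC columns mostly red, and the group means over all rows are 10.53, 11.38, 10.59 and 11.37 in the order of the columns.

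Under hypoxia, 10 genes fell in co-culture at a Benjamini-Hochberg adjusted p under 0.05 (limma, over all features), against 0.676% of all features, and a further count at an unadjusted p under 0.05 gave 46 lower genes, against 12.5%. The 10 were CCNB1, ASPM, MKI67, PTTG1, KIF20A, CENPE, CDC20, AURKA, CCNB2 and PLK1, and 17 genes were lower by more than 2-fold. None of the 10 passed when the replicate number entered as a block, which pairs same-numbered arrays, nor when any 1 of the 6 arrays was left out. In each of these fits 0 of all 34487 features passed in either direction. The block leaves each difference as it is, so the median could not move there. With 1 array left out the median of the 52 genes stayed negative. With all 12 arrays in 1 fit 29 genes passed, against 3.63% of all features lower, and 35 did with the block in that fit, against 5.40%.

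Under normoxia, none of the 52 genes passed after adjustment, with a smallest adjusted p of 0.0843 (limma), against 0.0145% of all features lower and 0.00870% higher. At an unadjusted p under 0.05, 44 genes were lower, against 8.00% of all features, and 9 were lower by more than 2-fold. With all 12 arrays in 1 fit, 25 genes passed as lower, against 519 of the 34487 features, and with features of low intensity left out 13 did, against 182 of the 25865 tested (0.704%).

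**Figure D3:**
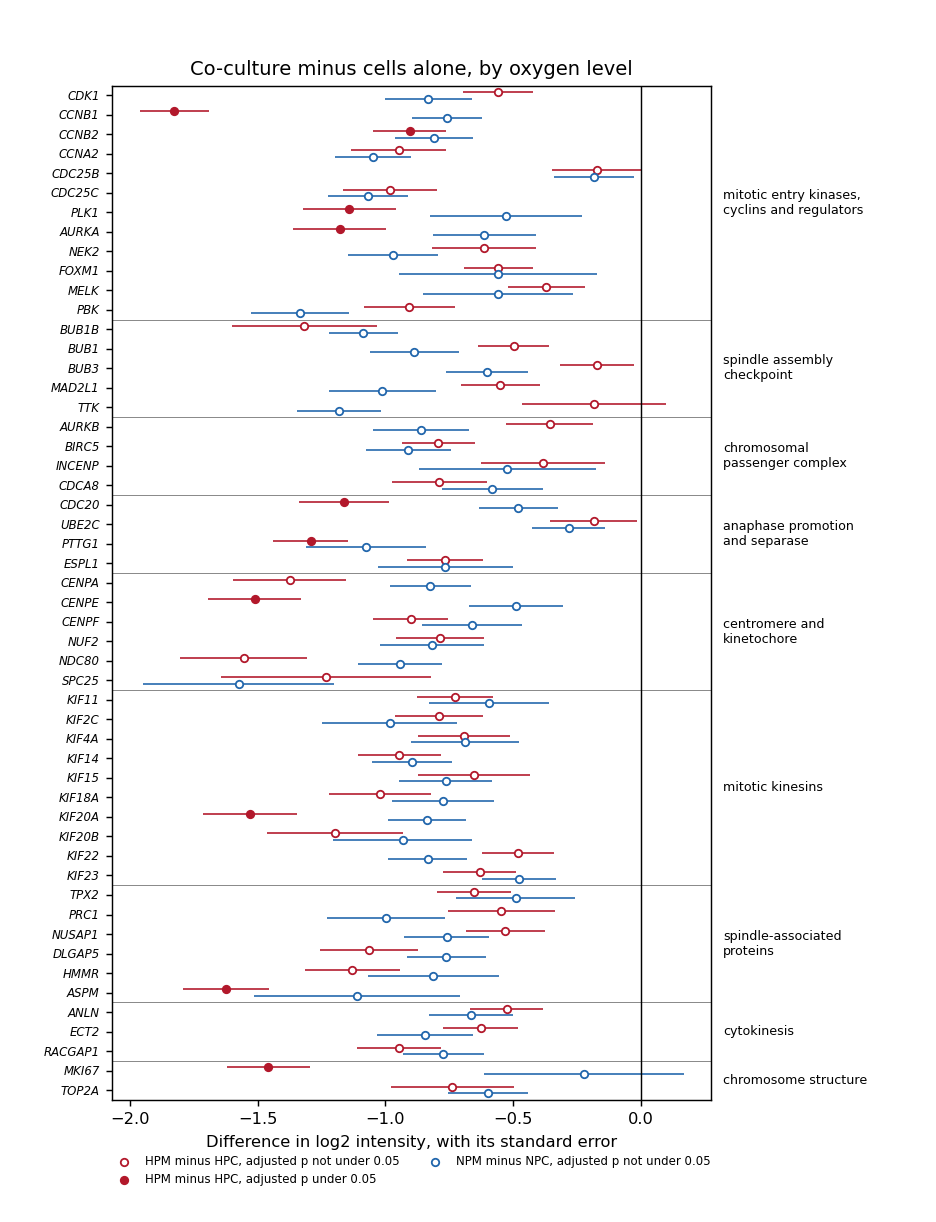
Difference in log2 intensity between co-cultured cells and cells alone for each of the 52 mitotic genes, with its standard error, for HPM minus HPC (red) and NPM minus NPC (blue). Filled points mark an adjusted p under 0.05 (limma), which 10 genes reached in HPM minus HPC and none in NPM minus NPC, and all points lie left of 0.

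Among the kinases, cyclins and regulators of mitotic entry (12 genes), 11 were lower in HPM vs HPC at an unadjusted p under 0.05, 4 of them after adjustment, and 8 in NPM vs NPC. CCNB1, cyclin B1, which activates CDK1 at the entry into mitosis, measured 11.27, 11.46 and 11.48 in HPM against 13.21, 13.27 and 13.20 in HPC, and 12.64, 12.56 and 12.56 in NPM against 13.29, 13.35 and 13.40 in NPC (log2 intensity). The HPM arrays lay lowest, the NPM arrays between, and neither overlapped the cells alone. The difference was -1.83 ± 0.14 under hypoxia (adjusted p = 0.0346, limma) and -0.76 ± 0.14 under normoxia (SE, adjusted p = 0.114).

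CDK1, the kinase that drives mitosis, measured 11.05, 11.17 and 10.97 in HPM against 11.64, 11.68 and 11.55 in HPC, and 10.21, 10.33 and 10.28 in NPM against 11.13, 11.33 and 10.86 in NPC. Co-cultured cells lay below their own controls at both oxygen levels without overlap, but the HPM arrays reached the range of NPC. The differences of -0.56 under hypoxia and -0.83 under normoxia did not pass after adjustment. A further feature of CDK1 gave -0.81 and -0.72.

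AURKA, Aurora A, the kinase of centrosome maturation, measured 10.96, 10.91 and 10.98 in HPM against 11.79, 12.29 and 12.32 in HPC. The 3 HPM arrays lay within 0.07 of each other, and all 3 HPC arrays were higher. AURKA fell by 1.18 on the log2 scale (SE 0.18, adjusted p = 0.0484, limma), and in NPM vs NPC its difference was -0.61.

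CCNB2, cyclin B2, and PLK1, Polo-like kinase 1, fell in HPM vs HPC by 0.91 and 1.14 on the log2 scale (adjusted p = 0.04996 for both, limma). In NPM vs NPC the difference of CCNB2 was -0.81, while that of PLK1 was -0.53 with an SE of 0.30. PLK1 measured 12.80, 13.20 and 12.06 in NPM against 13.14, 13.37 and 13.14 in NPC, so that NPM array 2 lay within the range of NPC. CCNA2, cyclin A2, PBK, a mitotic kinase, and CDC25C, a phosphatase that activates CDK1, were among the 5 genes with the smallest p in NPM vs NPC. PBK measured 9.45, 9.29 and 9.67 in NPM against 10.79, 11.04 and 10.57 in NPC, so that the lowest NPC array lay above the highest NPM array. Its difference was -1.33 ± 0.19 (SE, adjusted p = 0.0843, limma). CCNA2 measured 10.19, 9.95 and 10.08 in NPM against 11.19, 11.15 and 11.03 in NPC, a difference of -1.05, and CDC25C measured 9.57, 9.26 and 9.45 in NPM against 10.43, 10.45 and 10.61 in NPC, a difference of -1.07. Neither overlapped. FOXM1, the transcription factor of this wave, was at -0.56 in both comparisons, with an SE of 0.13 in HPM vs HPC and 0.39 in NPM vs NPC. It was low on arrays 3 of both NPM and NPC, and the fit behind these SEs did not pair same-numbered arrays. A further FOXM1 feature gave -0.57 in HPM vs HPC and -0.60 in NPM vs NPC.

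All 5 genes of the spindle assembly checkpoint were lower in NPM vs NPC at an unadjusted p under 0.05 (median -1.01), and 3 were in HPM vs HPC (median -0.50), with none after adjustment. For BUB3 the feature used gave -0.60 in NPM vs NPC and -0.17 in HPM vs HPC. Its further feature gave -0.18 and -0.46 (unadjusted p = 0.311 and 0.0318, limma), so that the counts depend on the feature. BUB1B, the checkpoint kinase-like protein BUBR1, measured 8.92, 7.89 and 8.52 in HPM against 10.03, 9.70 and 9.56 in HPC, and 8.92, 8.86 and 8.89 in NPM against 9.99, 9.98 and 9.95 in NPC. The normoxia arrays were tightly grouped and far apart, at -1.09 ± 0.13 (SE, adjusted p = 0.0843, limma), while the HPM arrays were scattered. TTK, the kinase MPS1 that recruits the checkpoint to kinetochores, measured 9.29, 8.98 and 8.89 in HPM against 9.62, 9.45 and 8.65 in HPC, and 8.71, 8.42 and 8.404 in NPM against 9.57, 9.67 and 9.84 in NPC. Its groups overlapped under hypoxia, where the difference was -0.19, and stood apart under normoxia, where it was -1.18 ± 0.17 (SE, adjusted p = 0.0843, limma).

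The 4 genes of the chromosomal passenger complex, which corrects faulty attachments and starts cytokinesis, had medians of -0.59 in HPM vs HPC and -0.72 in NPM vs NPC, with 2 and 3 genes at an unadjusted p under 0.05. AURKB, Aurora B, its kinase, measured 13.40, 13.24 and 13.52 in HPM against 13.50, 13.81 and 13.93 in HPC, and 12.45, 12.84 and 12.51 in NPM against 13.23, 13.59 and 13.57 in NPC. The groups overlapped under hypoxia (-0.36) and did not under normoxia (-0.86 ± 0.19, SE, adjusted p = 0.144, limma). BIRC5, survivin, gave -0.79 and -0.91.

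In the group that promotes anaphase (4 genes), CDC20 and PTTG1 passed in HPM vs HPC. CDC20, the activator of the anaphase-promoting complex, measured 11.64, 12.11 and 12.13 in HPM against 13.13, 13.15 and 13.08 in HPC, and 12.49, 12.69 and 12.61 in NPM against 12.92, 13.12 and 13.18 in NPC. Its HPC arrays lay close together, and HPM fell by 1.16 on the log2 scale (SE 0.18, adjusted p = 0.0472, limma), with -0.48 in NPM vs NPC. PTTG1, securin, which keeps separase inactive, measured 10.92, 11.00 and 11.23 in HPM against 12.34, 12.42 and 12.27 in HPC, without overlap. It fell by 1.29 (adjusted p = 0.0393, limma), and the difference in NPM vs NPC was -1.07. UBE2C, the ubiquitin-conjugating enzyme of the same complex, differed least in the group, at -0.19 and -0.28, and its 3 further features ranged from -0.34 to -0.18 in HPM vs HPC and from -0.64 to -0.25 in NPM vs NPC.

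All 6 genes of the centromere and kinetochore were lower at an unadjusted p under 0.05 in both comparisons, with medians of -1.30 in HPM vs HPC and -0.82 in NPM vs NPC. CENPE, the kinesin that carries chromosomes to the metaphase plate, measured 7.47, 7.22 and 7.66 in HPM against 9.19, 8.87 and 8.83 in HPC, and 8.70, 8.36 and 8.65 in NPM against 9.10, 9.26 and 8.83 in NPC. The HPM arrays lay far below the other 9, and CENPE fell by 1.51 in HPM vs HPC (adjusted p = 0.0440, limma), with -0.49 ± 0.18 in NPM vs NPC. CENPA, the histone H3 variant that marks centromeres, measured 8.90, 8.26 and 8.93 in HPM against 9.95, 10.24 and 10.02 in HPC, and 9.01, 9.03 and 8.87 in NPM against 9.86, 9.93 and 9.60 in NPC. Neither pair overlapped, and the differences were -1.37 and -0.82. SPC25, a subunit of the NDC80 complex, had the largest difference in NPM vs NPC (-1.57), with an SE of 0.37, and was among the dim genes, at percentiles 5.98 to 50.8.

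All 10 mitotic kinesins were lower at an unadjusted p under 0.05 in both comparisons, with medians of -0.76 in HPM vs HPC and -0.81 in NPM vs NPC. KIF11, Eg5, which pushes the spindle poles apart, measured 10.29, 10.46 and 10.46 in HPM against 11.01, 11.08 and 11.30 in HPC, and 10.71, 10.50 and 10.28 in NPM against 11.25, 11.36 and 10.66 in NPC. The hypoxia groups stood apart, whereas NPC array 3 lay below NPM array 1. KIF20A, a kinesin of the central spindle, measured 10.21, 10.02 and 10.29 in HPM against 11.96, 11.43 and 11.72 in HPC, and 10.80, 11.01 and 10.70 in NPM against 11.71, 11.70 and 11.62 in NPC. HPM was lowest and the cells alone highest. Of the 10 genes in this group only KIF20A passed in HPM vs HPC, where it fell by 1.53 (SE 0.18, adjusted p = 0.0440, limma). The kinesin CENPE, which also passed, is counted with the kinetochore genes above.

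The 6 spindle-associated proteins had medians of -0.86 in HPM vs HPC and -0.79 in NPM vs NPC. TPX2, which activates Aurora A on the spindle, measured 12.54, 12.67 and 12.66 in HPM against 13.11, 13.39 and 13.34 in HPC, and 12.35, 13.14 and 12.91 in NPM against 13.33, 13.37 and 13.16 in NPC. NPM spread widely, and its highest array came within 0.03 of the lowest NPC array. ASPM, a protein of spindle poles, measured 9.03, 9.16 and 9.33 in HPM against 10.99, 10.80 and 10.59 in HPC, and 9.96, 9.91 and 8.58 in NPM against 10.86, 10.69 and 10.24 in NPC. It fell by 1.62 in HPM vs HPC (adjusted p = 0.0362, limma), and NPM array 3 lay well below the other NPM arrays.

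The 3 genes of cytokinesis were lower at an unadjusted p under 0.05 in both comparisons. ANLN, anillin, a scaffold of the contractile ring, measured 11.82, 12.002 and 12.09 in HPM against 12.50, 12.55 and 12.43 in HPC, and 11.65, 11.76 and 11.94 in NPM against 12.29, 12.58 and 12.47 in NPC, a difference of -0.53 and -0.67 without overlap. MKI67, the antigen Ki-67 that coats mitotic chromosomes and is used to count cycling cells, measured 9.61, 9.54 and 9.67 in HPM against 11.32, 10.98 and 10.89 in HPC, and 11.13, 10.79 and 9.95 in NPM against 11.19, 11.14 and 10.21 in NPC. It fell by 1.46 in HPM vs HPC (SE 0.16, adjusted p = 0.0362, limma) without overlap. In NPM vs NPC the groups overlapped, as arrays 3 of both were low, and the difference was -0.22 ± 0.39 (SE). That SE is of a fit that did not pair same-numbered arrays, and NPM lay below NPC at each replicate number. TOP2A, topoisomerase II alpha, gave -0.74 and -0.60.

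In cells alone, the levels under hypoxia and normoxia lay close to each other. In HPC vs NPC, 25 of the 52 were lower and 27 higher, the median difference was 0.02 (range -0.60 to 0.55), and 49 differed by less than 0.5 on the log2 scale. These values are of the feature used for each gene. Further features gave 0.81 for CDK1, 0.64 for KIF23 (-0.17 in the feature used) and 0.41 to 0.57 for UBE2C. Each of them had an unadjusted p under 0.05 and none passed after adjustment (limma). The further features of BUB3, FOXM1 and PRC1 lay between -0.08 and 0.02. None passed after adjustment (limma, smallest adjusted p = 0.137), against 0.0174% of all features lower and 0.139% higher. At an unadjusted p under 0.05, 1 gene was lower, against 8.90% of all features, and 3 were higher, against 8.92%. The lower one was ECT2, the exchange factor that starts furrowing, which measured 10.72, 10.79 and 10.63 in HPC against 11.40, 11.39 and 11.14 in NPC, without overlap (-0.60 ± 0.16, SE). The higher ones were CDK1 (0.52), HMMR, a microtubule-binding receptor of hyaluronan (0.55), and CDC25C (0.44). HMMR measured 10.70, 10.27 and 10.64 in HPC against 9.69, 10.10 and 10.18 in NPC, and CDC25C 11.09, 11.06 and 10.67 in HPC against 10.43, 10.45 and 10.61 in NPC, where the lowest HPC array lay just above the highest NPC array. KIF2C, a kinesin that depolymerizes microtubules, measured 12.17, 12.56 and 12.22 in HPC against 11.57, 12.03 and 11.96 in NPC (0.46), and TTK gave -0.45 with overlapping groups.

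In co-cultured cells single genes changed in opposite directions between hypoxia and normoxia, while the median of the set was -0.05 in HPM vs NPM (range -1.19 to 0.79). After adjustment 4 genes fell, against 5.79% of all features, and 2 rose, against 4.65%. At an unadjusted p under 0.05, 10 were lower, against 14.9% of all features, and 9 higher, against 13.0%, so that both shares of the 52 lay near the background. CCNB1 fell by 1.19 (SE 0.14, adjusted p = 0.00962, limma), CENPE by 1.12 (adjusted p = 0.0187), AURKA by 0.90 (adjusted p = 0.0244) and KIF20A by 0.66 (adjusted p = 0.0483). AURKA measured 11.60, 11.97 and 11.99 in NPM, above the 3 HPM arrays given above. CDK1 rose by 0.79 (SE 0.14, adjusted p = 0.0234) and AURKB by 0.79 (SE 0.17, adjusted p = 0.0377), and in both the lowest HPM array lay above the highest NPM array. The other feature of CDK1 rose as well, by 0.72 (adjusted p = 0.0414). With 1 of the 6 arrays left out, 0 to 3 of the 52 passed, with 0 without NPM array 2, and CDK1, AURKB and KIF20A passed in none of these fits. Over all features, these fits called 90 to 1036 lower and 101 to 916 higher. None of the 52 passed without the arrays numbered 3, where 0 of all features passed. HPM vs NPM shares its arrays with the co-culture comparisons, so that these values are no independent measure of them.

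**Figure D4:**
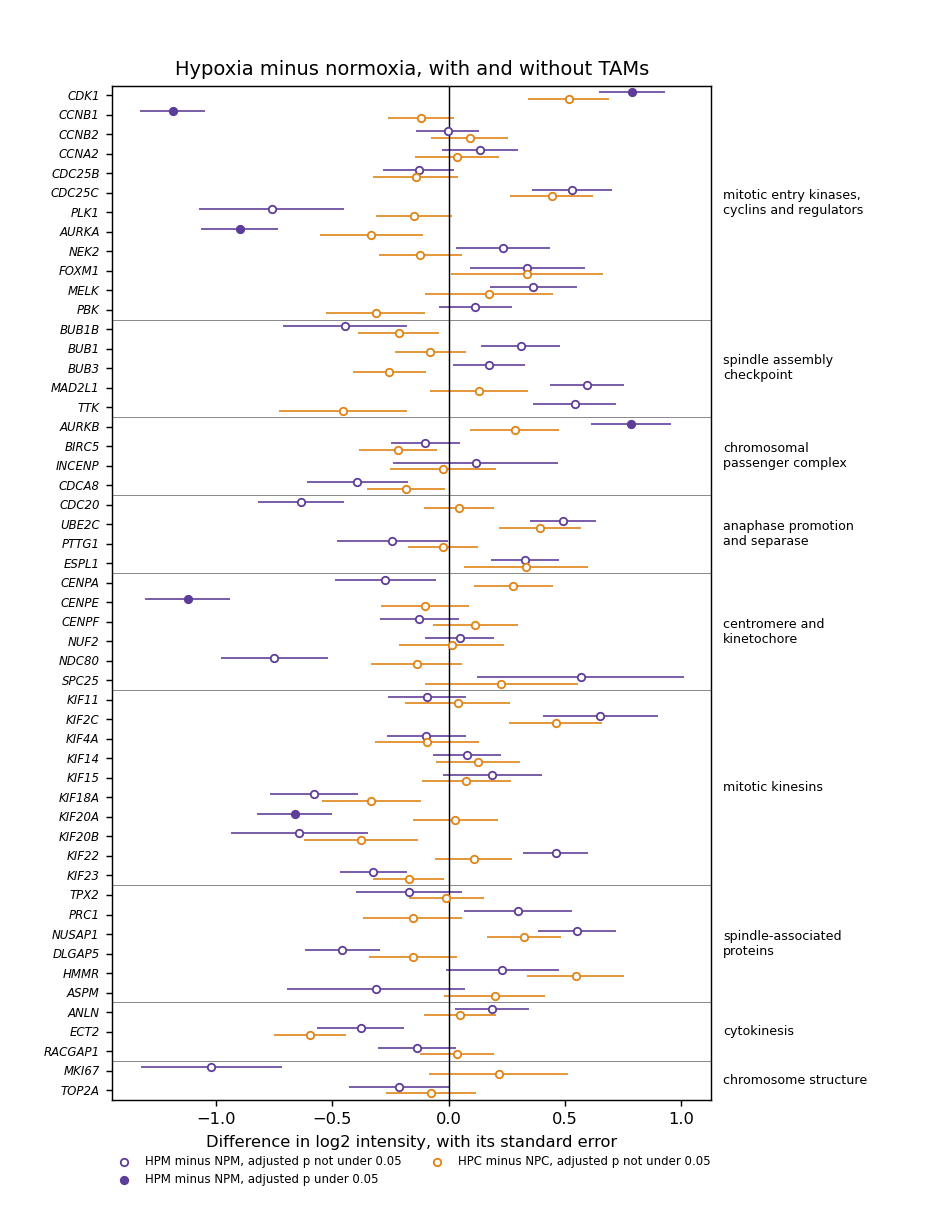
Difference in log2 intensity between hypoxia and normoxia for each of the 52 mitotic genes, with its standard error, in co-cultured cells (HPM minus NPM, purple) and in cells alone (HPC minus NPC, orange). Filled points mark an adjusted p under 0.05 (limma), which CCNB1, CENPE, AURKA, KIF20A, CDK1 and AURKB reached in co-cultured cells and no gene in cells alone.

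Whether co-culture acted alike at both oxygen levels was examined with an interaction term fitted to the 12 arrays. The median over the 52 genes was 0.00, with 27 negative and 25 positive values. CCNB1 was the only one of the 52 that passed, with an interaction of -1.07 ± 0.17 (SE, adjusted p = 0.0318, limma), against 0.278% of all features lower, so that its level in co-culture lay further below cells alone under hypoxia. It no longer passed when any 1 of the 12 arrays was left out or when same-numbered arrays entered as a block. Of all features, 96 were called lower in the main fit, 14 to 56 with 1 array left out and 16 (0.0464%) with the block. At an unadjusted p under 0.05, 5 genes were negative, against 6.35% of all features, and 1 was positive, against 5.09%. The negative ones were CCNB1, CENPE (-1.02), CDC20 (-0.68), KIF20A (-0.69) and MKI67 (-1.23), and the positive one was TTK (1.00, SE 0.34). AURKB gave 0.50.

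**Figure D5:**
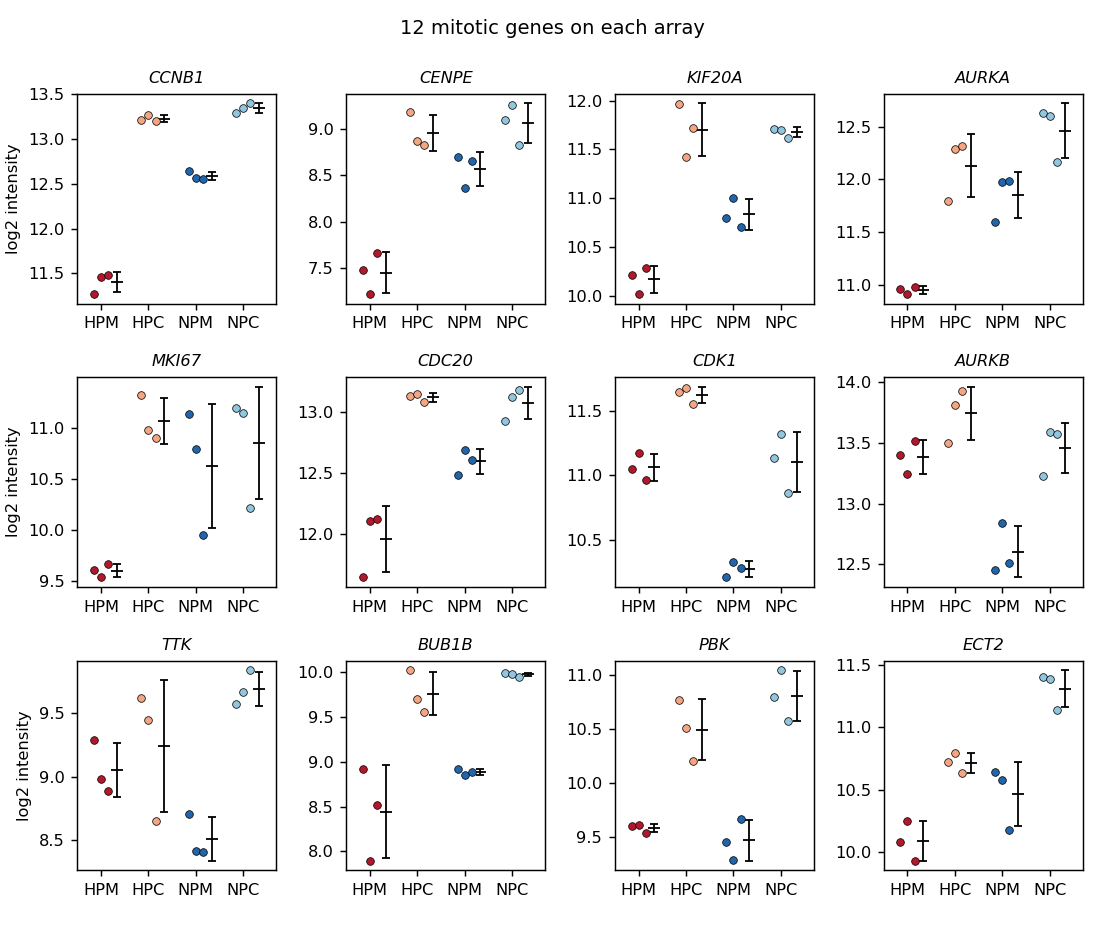
Log2 intensity of 12 mitotic genes on each of the 3 arrays of HPM, HPC, NPM and NPC (points), with the mean and SD beside them (bars). CCNB1, CENPE, KIF20A and AURKA lie lowest in HPM, whereas CDK1, AURKB and TTK have their lowest mean in NPM, and MKI67 is low on array 3 of NPM and of NPC.

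Genes with a CHR match (TTTGAA or TTTAAA) in the window and genes without one had different medians, given here as a description. In HPM vs HPC the median was -0.91 over the 35 genes with a match and -0.49 over the 8 without, and in NPM vs NPC it was -0.78 and -0.87. In HPM vs NPM it was -0.21 and 0.34.

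Further genes of mitosis, in 6 lists that hold none of the 52, were measured for comparison (118 genes). In HPM vs HPC 12 of them fell after adjustment, against 0.676% of all features, with a median of -0.50. At an unadjusted p under 0.05, 57 were lower there, against 12.5%. In NPM vs NPC none passed, and the median was -0.59. There 63 were lower and 1 higher at an unadjusted p under 0.05, against 2760 and 1948 of all 34487 features. Kinesins, spindle and centrosome proteins (23 genes) had medians of -0.77 and -0.68 and kinetochore and centromere proteins (30 genes) -0.67 and -0.78. GTSE1, a microtubule-binding protein of G2 and mitosis, fell by 1.98 in HPM vs HPC (adjusted p = 0.0346, limma), more than any of the 52, and also had a negative interaction (-1.44, adjusted p = 0.0372). Regulators of the entry switch (16 genes) had medians of -0.72 and -0.58, the anaphase-promoting complex and its inhibitors (18 genes) -0.43 and -0.25, condensin and cohesin (18 genes) -0.23 and -0.45, and MuvB and its partners (13 genes), which control the set, -0.19 and -0.41. UBE2S, which extends ubiquitin chains for the anaphase-promoting complex, and FBXO5, EMI1, which inhibits it, fell in HPM vs HPC by 1.29 and 1.01 (adjusted p = 0.0461 and 0.0469, limma).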

How the data were processed

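The authors read the arrays with GenePix Pro 6.0 processed them with NimbleScan 2.5, by RMA after quantile normalization, used GeneSpring GX 11.5.1 for later steps, and deposited normalized intensities on a linear scale. The sources differ on the array, as the methods name a Roche NimbleGen array and the submitters' series description an Arraystar array with 34487 targets. No array background was used, and the number of arrays limits the precision. Of 34487 features, 14133 were named by the platform's annotation and 542 by RefSeq accessions, and 19812 had no name.

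Intensities were log2-transformed and fitted with limma 3.58.1 in R 4.3.3 (lmFit and eBayes, two-sided), each comparison on its own 6 arrays, with Benjamini-Hochberg adjustment over all features and a threshold of 0.05. The interaction was fitted over 12 arrays. The scripts were tested on simulated data. The members and lists were chosen with earlier results of these data known. Values per array are given for the first-listed gene of each role and, in each comparison, for the 5 genes with the smallest p and the 2 with the largest difference against the sign of the median. Of each further list up to 3 genes with the smallest p could be named.

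Replicate numbers come from the sample labels. The residuals of same-numbered arrays correlated at 0.34, 0.28 and 0.52 between NPM and NPC and at 0.50, 0.27 and 0.54 between HPM and HPC. The main fits did not pair arrays by these numbers, which entered only as the replicate block among the alternatives. Alternatives were repeated quantile normalization, median centring, dropping features whose mean intensity lay under the 25th percentile, a single fit to 12 arrays, the replicate block, the methods' t-test, eBayes with trend and robust settings, averaging a gene's features, leaving out the arrays numbered 3, and leaving out each array in turn. Python 3.11.15 and matplotlib 3.10.9 were used for tables and figures.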

Additional observations from a re-analysis of the deposited data

Results flagged for a closer look

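CCNB1 was flagged because its co-culture effect differed between the oxygen levels by a test of that difference. The co-culture difference was -1.83 in HPM vs HPC and -0.76 in NPM vs NPC, and the interaction was -1.07 on the log2 scale (adjusted p = 0.0318, limma). All 3 HPM arrays lay below all 3 NPM arrays, and all 6 lay below the arrays of cells alone. The interaction no longer passed when any 1 of the 12 arrays was left out, nor with the replicate block over all 12 arrays. The number of all features called lower fell from 96 to between 14 and 56 and to 16 in these fits.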

How the results depend on the processing

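The median over the 52 genes kept its direction in both co-culture comparisons under each alternative run, at -0.82 to -0.76 in NPM vs NPC and -0.79 to -0.75 in HPM vs HPC with no array left out singly, whereas the number that passed after adjustment varied. The fits to 12 arrays, the replicate blocks, the eBayes settings and the t-test leave each difference as it is. Their medians could therefore not move. In NPM vs NPC the main count of 0 became 25 with all 12 arrays in 1 fit, 28 with eBayes trend and robust settings, 13 with low features left out, 2 in the methods' t-test and 27 with the replicate block over all 12 arrays. In HPM vs HPC the 10 became 29, 38, 33, 2 and 35 under the same settings, 6 with median centring and 6 with quantile normalization repeated, and 0 without the arrays numbered 3 or with the replicate block over 6 arrays. Under the settings that raised these counts, other than the t-test, 0.704 to 1.90% of all features tested were called lower in NPM vs NPC and 3.63 to 5.40% in HPM vs HPC. The t-test called 0.0899% of all features lower in NPM vs NPC and 0.391% in HPM vs HPC. Median centring called 0.513% lower in HPM vs HPC and repeated quantile normalization 0.536%. The settings with 0 genes in HPM vs HPC called 0 of all features. In HPM vs NPM the 6 became 12 with all 12 arrays, 12 with eBayes trend and robust settings, 13 with low features left out and 11 with the replicate block over all 12 arrays, but 2 with the replicate block over 6 arrays and 0 without the arrays numbered 3, where 11 in place of 19 had an unadjusted p under 0.05. The settings that gave 11 to 13 genes called 8.23 to 11.0% of all features tested lower and 6.89 to 8.53% higher. The replicate block over 6 arrays called 2.82% lower and 2.55% higher, and leaving out the arrays numbered 3 called 0 features. Without the arrays numbered 3, 4358 of all 34487 features were lower and 3929 higher at an unadjusted p under 0.05. In the main fit of HPM vs NPM these were 5145 and 4472. What the replicate numbers mark is not stated. Residuals of same-numbered arrays correlated at 0.38, 0.010 and 0.20 between HPM and NPM. Between HPC and NPC they correlated at 0.24, 0.025 and 0.38. At the unadjusted threshold the methods' t-test gave 42 lower genes in NPM vs NPC and 44 in HPM vs HPC. Of all 34487 features it gave 2868 and 4114 lower. In HPC vs NPC, eBayes trend and robust settings gave 1 gene after adjustment (ECT2, lower) in place of 0. They called 2.21% of all features lower and 2.54% higher. At an unadjusted p under 0.05 they gave 7 of the 52 in place of 4. Of all 34487 features, 3672 were lower and 3251 higher at that p under these settings. In the interaction the 1 call became 0 without the arrays numbered 3 and with the replicate block over all 12 arrays, where 0 and 16 of all features were called lower.

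With each array left out in turn, the genes called were 0 to 3 in HPM vs NPM and 0 throughout in both co-culture comparisons, in HPC vs NPC and in the interaction, and the fits then rest on fewer arrays. Over all features these fits called 0 in HPM vs HPC and in HPC vs NPC, and 0 to 4 in NPM vs NPC. In HPM vs NPM they called 90 to 1036 lower and 101 to 916 higher. In the interaction they called 14 to 56 lower and 7 to 26 higher. Those at an unadjusted p under 0.05 numbered 1 to 4 in HPC vs NPC, and the median of the interaction ranged from -0.15 (without NPC array 2) to 0.066 (without NPC array 3). The median was -0.87 to -0.74 in NPM vs NPC and -0.83 to -0.78 in HPM vs HPC. The cause of these shifts in counts was not tested. Over the genes named by the rule, 340 values kept their side of the threshold, 88 lost a pass, 22 gained one and 0 reversed.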

Other observations

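Genes of DNA replication, a list of 27 measured genes that holds none of the mitotic genes, were set beside them. Their median was -0.34 in HPM vs HPC and -0.97 in NPM vs NPC. In HPM vs HPC 11 genes were lower at an unadjusted p under 0.05, against 12.5% of all features, and 1 after adjustment, against 0.676% (limma). In NPM vs NPC 24 were lower at an unadjusted p under 0.05, against 8.00%, and none after adjustment. In HPC vs NPC their median was -0.28, against 0.02 for the mitotic genes. There 13 of 27 were lower at an unadjusted p under 0.05, against 8.90% of all features. Their interaction had a median of 0.60, against a median of 0.00 over the mitotic genes. It was positive at an unadjusted p under 0.05 for 14 of 27, against 5.09% of all features, and for none after adjustment. RRM2, a subunit of ribonucleotide reductase, was at -1.24 and MCM3 and MCM6, subunits of the replicative helicase, at -1.17 and -1.32 in NPM vs NPC (adjusted p = 0.0843 for each). FEN1, the flap endonuclease of lagging-strand synthesis, fell by 1.33 in HPM vs HPC (adjusted p = 0.0461). The difference between the lists was not tested.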
